A study of Mus musculus with 6 samples.

Results

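The genes described here were 4 BMP ligands (Bmp2, Bmp3, Bmp4 and Bmp7) and 5 secreted BMP antagonists (Chrd, Chrdl1, Grem1, Nbl1 and Sostdc1) in cancer-associated fibroblasts (CAFs) of mouse mammary tumors. These 9 genes, of 27179 in the count table, were chosen on their levels in the CD34 negative and CD34 positive CAFs compared below. Their differences between the groups are therefore given as a description only. Calls of members in the fits over all genes are printed, but the choice favored such calls and nothing is read from them. Of the 9, 8 passed the filter on low counts that left 14855 genes, and Sostdc1 did not. RNA was sequenced from GFP+ CAFs of 3 tumors of raGFP-Wnt1 mice, each sorted into a CD34 negative and a CD34 positive fraction, which gave 3 libraries per group and 1 pair per tumor. All 6 libraries share 2 alleles, the MMTV-Wnt1 transgene, whose promoter is active in the mammary epithelium, and a GFP reporter in the Pdgfra locus that marks fibroblasts. No agent was given to these groups in the labels, which state neither age nor whether the 3 tumors came from separate mice. Libraries are named below by group and tumor, for example negative 1.

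BMPs are secreted dimers of the TGF-beta superfamily that bind type I and type II serine/threonine kinase receptors. The receptors phosphorylate Smad1, Smad5 and Smad9, which enter the nucleus with Smad4 and raise the transcription of targets such as the Id genes. Extracellular antagonists of the chordin, DAN and follistatin families bind the ligands and keep them from their receptors, and tolloid proteases release ligand by cleaving chordin. In the mammary gland, fibroblasts are a known source of both ligands and antagonists that act on the neighboring epithelium.

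The antagonists of the chordin family bind ligand through cysteine-rich von Willebrand factor type C domains, whereas the BMPs and the DAN family antagonist Nbl1 fold around a cystine knot. The coding sequence of each gene was therefore searched for the 60 codons with the most cysteine codons, and the sequences below show how dense they are in the antagonists compared with the ligands. Sequences and positions are from GENCODE M21 on the mouse build GRCm38, written 5′ to 3′ in the direction of the transcript with introns left out, and the cysteine codons are in capitals.
Chrdl1: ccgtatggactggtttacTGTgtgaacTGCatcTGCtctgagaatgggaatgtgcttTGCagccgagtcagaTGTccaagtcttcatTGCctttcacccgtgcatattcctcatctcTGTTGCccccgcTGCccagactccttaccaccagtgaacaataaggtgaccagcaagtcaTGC
Chrd: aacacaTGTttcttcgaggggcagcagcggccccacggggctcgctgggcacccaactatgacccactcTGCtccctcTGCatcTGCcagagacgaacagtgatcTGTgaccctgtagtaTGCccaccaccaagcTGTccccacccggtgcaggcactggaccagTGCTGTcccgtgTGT
Nbl1: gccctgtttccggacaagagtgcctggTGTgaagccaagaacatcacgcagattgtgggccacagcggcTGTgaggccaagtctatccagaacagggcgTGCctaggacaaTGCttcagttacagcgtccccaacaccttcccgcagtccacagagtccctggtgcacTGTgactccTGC
Bmp2: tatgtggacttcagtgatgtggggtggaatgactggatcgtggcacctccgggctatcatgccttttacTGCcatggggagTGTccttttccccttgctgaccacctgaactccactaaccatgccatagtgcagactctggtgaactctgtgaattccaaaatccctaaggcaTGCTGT
Bmp4: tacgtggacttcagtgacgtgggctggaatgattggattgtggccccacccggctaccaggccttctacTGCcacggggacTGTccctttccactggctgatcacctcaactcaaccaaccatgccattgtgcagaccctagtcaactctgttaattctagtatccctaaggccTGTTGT
Bmp7: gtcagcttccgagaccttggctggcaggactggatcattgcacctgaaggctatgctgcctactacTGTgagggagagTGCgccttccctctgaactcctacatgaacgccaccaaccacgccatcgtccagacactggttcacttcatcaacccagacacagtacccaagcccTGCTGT

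The Chrdl1 stretch covers codons 51 to 110 and lies in 3 coding exons within chrX:143328021-143368393 on the minus strand. The Chrd stretch covers codons 721 to 780 and lies in 2 coding exons within chr16:20738727-20738993 on the plus strand. Each held 10 cysteine codons, a number that 3.37% of 21446 protein-coding genes reached in any 60 codons. Nbl1 held 6 (codons 25 to 84, chr4:139085268-139085548, minus strand, 2 coding exons), a number reached by 21.6% of genes. The ligand stretches held 4 cysteine codons each, as many as in 55.2% of genes: Bmp2 at codons 300 to 359 in 1 exon (chr2:133561428-133561607, plus strand), Bmp4 at codons 314 to 373 in 1 exon (chr14:46383967-46384146, minus strand) and Bmp7 at codons 336 to 395 across 3 exons (chr2:172870245-172875241, minus strand).

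The stretches not printed held 6 cysteine codons in Grem1, 5 in Sostdc1 and 3 in Bmp3. Over the whole coding sequence, cysteine made up 7.61% of the 447 codons of Chrdl1 and 4.95% of the 970 codons of Chrd. The paired spacing C-x-x-C-x-C followed by C-C-x-x-C within 60 codons, where x is any residue, occurred 3 times in Chrdl1, 4 times in Chrd and in none of the other 7 genes. It was found in 77 of 21446 genes (0.359%). The printed Bmp2 and Bmp4 stretches were identical at 150 of 180 bases (83.3%).

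The libraries held between 16238059 and 86609267 counts. Negative library 3 stood apart, with 14314 genes counted against 16253 to 19220 in the others and 1178 of the tested genes at 0 against 8 to 288. Cd34, the gene of the sorted protein, was lower in the CD34 negative libraries (log2 fold change −3.63 ± 0.44 SE), and Pdgfra was counted at 302 to 506 counts-per-million (CPM) in all 6. All 6 fibroblast markers were detected in every library and summed to between 39907 and 58639 CPM. Of these, 3 were called in the paired fit and were split by direction. Pdgfrb was higher in the CD34 negative libraries (log2 fold change 0.94 with the tumor as a block), and Dcn (−1.12) and Lum (−0.73) were lower. Epithelial markers (Krt8, Epcam and 5 others) summed to 151, 127 and 49.2 CPM in negative 1 to 3 and to 133, 83.4 and 12.9 in positive 1 to 3. All 7 had fold changes toward the CD34 negative group, with none called. Endothelial markers summed to 10.4 to 29.6 CPM against 55.2 to 122, with Cdh5 and Emcn at 0 in some libraries. In the CD34 positive libraries that sum was mostly Tek. Immune markers summed to at most 15.4 CPM in any library (Ptprc and Cd68 at 0 in some). Pericyte markers summed to 211 to 236 CPM against 86.8 to 188, and 5 of 6 were called in the paired fit. Of these, Cspg4, Mcam and Notch3 were higher and Kcnj8 and Abcc9 lower in the CD34 negative libraries.

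Among the ligands, Bmp7 was higher in CD34 negative CAFs. Bmp7, which signals through the type I receptors ALK2, ALK3 and ALK6, was counted at 36.1, 22.6 and 30.3 CPM in negative 1, 2 and 3 and at 9.35, 9.05 and 11.4 CPM in positive 1, 2 and 3. Every CD34 negative library lay above every CD34 positive one. The means were 29.7 ± 6.79 and 9.93 ± 1.28 CPM (SD, n = 3 each), 2.99-fold higher in CD34 negative CAFs, with a log2 fold change of 1.60 ± 0.27 (SE). Within tumors 1, 2 and 3 the log2 ratio was 1.95, 1.32 and 1.41. The epithelial marker sum was also higher in the CD34 negative fraction of every tumor, at 151 against 133 CPM in tumor 1, 127 against 83.4 in tumor 2 and 49.2 against 12.9 in tumor 3, and its part in the Bmp7 result was not tested. In bulk libraries such as these, fewer cells that make a transcript and less of it per cell cannot be told apart, for Bmp7 and for every gene below.

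**Figure D1:**
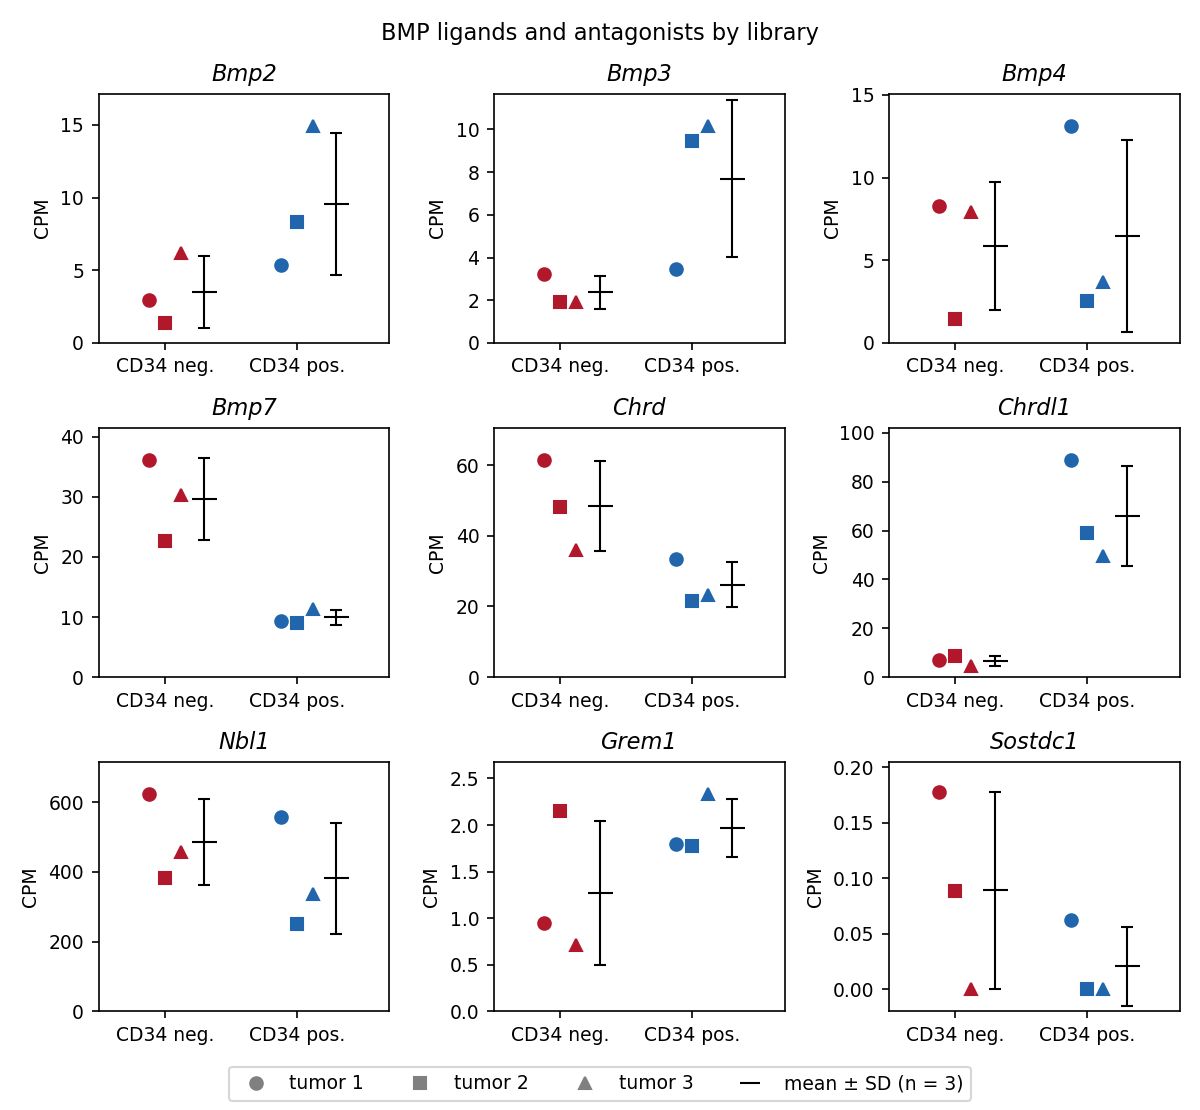
CPM of the 9 genes in each library, 1 panel per gene on its own linear axis, with CD34 negative libraries in red, CD34 positive ones in blue and marker shape for the tumor. Bars give the mean ± SD of 3 libraries. Bmp7 and Chrd sat higher and Chrdl1 and Bmp3 lower in all CD34 negative libraries, and the groups overlapped for the other 5 genes.

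Bmp2 and Bmp3 had lower means in CD34 negative CAFs but differed more between tumors. Bmp2, a strong inducer of bone and cartilage and a close relative of Bmp4, was counted at 2.92, 1.40 and 6.22 CPM in negative 1 to 3 and at 5.39, 8.31 and 14.9 CPM in positive 1 to 3. The groups overlapped, because negative 3 lay above positive 1, yet each tumor's CD34 negative fraction was the lower of its pair, with log2 ratios of −0.89, −2.56 and −1.26. The means were 3.51 ± 2.46 and 9.54 ± 4.89 CPM, 2.72-fold higher in CD34 positive CAFs, with a log2 fold change of −1.68 ± 0.55.

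Bmp3, an atypical member of the family that opposes osteogenic BMPs, was counted at 3.24, 1.93 and 1.93 CPM in negative 1 to 3 and at 3.47, 9.45 and 10.2 CPM in positive 1 to 3. The groups did not overlap, although in tumor 1 the fractions were nearly level. The log2 ratio was −0.11 there, against −2.29 and −2.39 in tumors 2 and 3. The log2 fold change was −1.80 ± 0.51, between means of 2.36 ± 0.76 and 7.69 ± 3.68 CPM, which is 3.25-fold higher in CD34 positive CAFs.

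Bmp4 took no single direction. This ligand, required for mesoderm formation in the embryo, was counted at 8.26, 1.42 and 7.89 CPM in negative 1 to 3 and at 13.1, 2.55 and 3.70 CPM in positive 1 to 3. Tumors 1 and 2 were lower in the CD34 negative fraction (log2 ratios −0.67 and −0.84) and tumor 3 was higher (1.09). The log2 fold change of 0.39 ± 0.76 was smaller than its error. It turned to −0.15 ± 0.44 with the tumor as a block. In fits without the block it turned to −0.38 without positive 2 and −0.18 without negative 1. There it was −0.0042 without negative 3, −0.11 without tumor 3 and 1.21 without negative 2. Bmp4 also had the widest spread of the 8 tested genes between libraries of a group, at 1.35 on the log2 CPM scale (pooled SD), against 0.42 for the median of all tested genes and 0.27 for Bmp7.

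Among the antagonists, Chrdl1 had the largest fold change of the 8 tested members. Chrdl1, a chordin-like protein that binds Bmp4 and other BMPs, was counted at 6.85, 8.57 and 4.40 CPM in negative 1 to 3 and at 88.8, 59.0 and 49.7 CPM in positive 1 to 3. The lowest CD34 positive library was far above the highest CD34 negative one. The means were 6.61 ± 2.09 and 65.8 ± 20.4 CPM, 9.96-fold higher in CD34 positive CAFs, with a log2 fold change of −3.25 ± 0.35 and ratios of −3.69, −2.78 and −3.49 within the tumors. In the fit without the block, leaving out any 1 library or tumor kept it between −3.50 and −3.04. With the tumor as a block it was −3.01, −3.63 and −3.27 without tumor 1, 2 and 3. These values rest on 160 to 387 counts per CD34 negative library and 1410 to 5037 per CD34 positive library. The gene lies at chrX:143285674-143394263 in GRCm38.

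Chrd, the founding member of the family and an inhibitor of Bmp2, Bmp4 and Bmp7, went the other way. It was counted at 61.4, 48.2 and 35.8 CPM in negative 1 to 3 and at 33.4, 21.5 and 23.4 CPM in positive 1 to 3. The groups did not overlap, but negative 3 and positive 1 lay close together. The means of 48.5 ± 12.8 and 26.1 ± 6.41 CPM gave 1.86-fold more in CD34 negative CAFs, a log2 fold change of 0.98 ± 0.26 and ratios of 0.88, 1.16 and 0.62 within the tumors. Chrd (chr16:20731425-20742384) overlaps Thpo, which had 306 counts over all libraries against 9968 for Chrd.

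**Figure D2:**
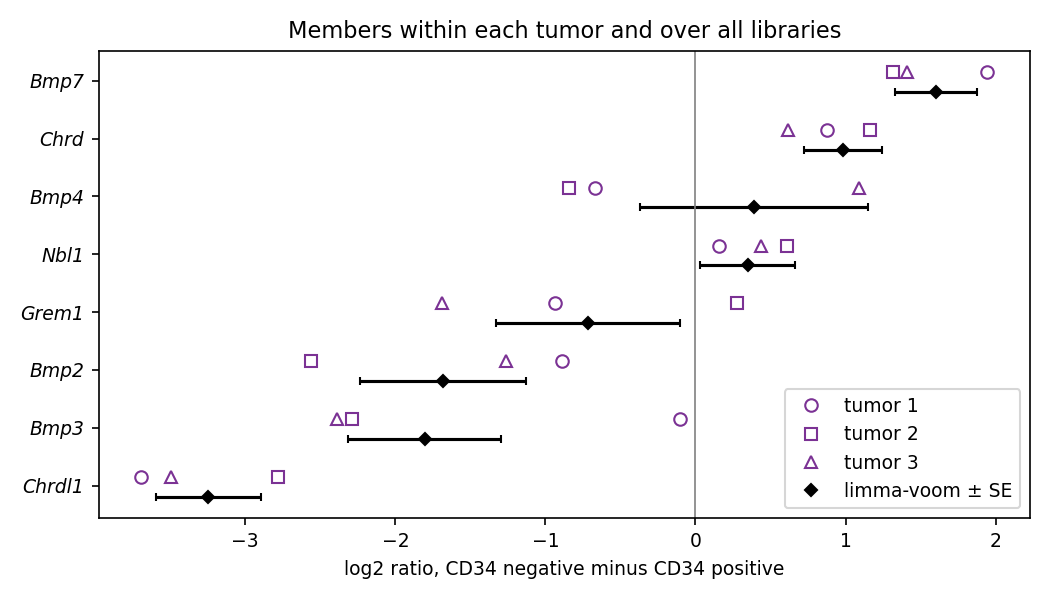
The log2 ratio of CD34 negative to CD34 positive CAFs for the 8 tested genes, with open markers for each tumor and black diamonds for the limma-voom fold change over all libraries (bars, SE). For Bmp7, Chrd, Nbl1, Bmp2, Bmp3 and Chrdl1 all 3 tumors lay on 1 side of 0, and for Bmp4 and Grem1 they did not. Of the 14855 genes tested, 46.3% likewise kept to 1 side of 0 across the tumors. The genes shown were chosen on this contrast, so nothing is read from how many did so.

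The groups overlapped for the DAN family antagonists. Nbl1, which binds BMPs and related GDF ligands, was counted at 622, 381 and 457 CPM in negative 1 to 3 and at 558, 250 and 337 CPM in positive 1 to 3. Tumor 1 was the highest in both groups. The log2 fold change was 0.35 ± 0.32, with ratios of 0.16, 0.61 and 0.44 within the tumors. With the tumor as a block it was 0.40 ± 0.13.

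Grem1, a Bmp2 and Bmp4 antagonist, was low in all libraries. It was counted at 0.944, 2.15 and 0.715 CPM in negative 1 to 3 and at 1.80, 1.78 and 2.33 CPM in positive 1 to 3, from 26 to 152 counts. The log2 fold change was −0.72 ± 0.62 without the block, and there it moved from −1.33 without tumor 2 to −0.38 without tumor 3. With the tumor as a block it was −0.08 without tumor 3. In tumor 2 the ratio was 0.27, against −0.94 and −1.69 in tumors 1 and 3. Sostdc1, a BMP and Wnt pathway inhibitor, had 10, 4 and 0 counts in negative 1 to 3 and 1, 0 and 0 counts in positive 1 to 3. A count of 0 allows up to 0.0825 CPM in negative 3 and 0.0351 and 0.106 CPM in positive 2 and 3. At 0.178 CPM, negative 1 lay above the limits of positive 2 and 3. Its own 95% counting interval reached down to 0.0854 CPM, below the limit of positive 3. The 1 count of positive 1 allowed up to 0.345 CPM. The libraries of each group differed among themselves, and the gene was not tested. The limit for a count of 0, taken as 3 counts, covers counting error only, as do the intervals.

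Read against all genes, 1 of the 8 tested members, Chrdl1, was called by limma-voom at an adjusted p under 0.05, where 0.121% of tested genes were called. That count became 0 without positive 2, positive 3, negative 1, negative 2, negative 3, tumor 2 or tumor 3. With the tumor as a block, 2 members were called higher (Bmp7 and Chrd) and 2 lower (Chrdl1 and Bmp2), where 4.32% and 4.25% of all tested genes were called higher and lower. These 4 became 2 without tumor 2. Groups that did not overlap were seen for 2 members with higher levels (Bmp7 and Chrd) and 2 with lower levels (Chrdl1 and Bmp3), against 10.4% and 10.0% of tested genes. Without negative 3, the library that stood apart, the log2 fold change was −3.04 for Chrdl1, −1.67 for Bmp3, −2.11 for Bmp2, 1.57 for Bmp7 and 1.16 for Chrd. Because the members were chosen on this contrast, nothing is read from these counts.

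Levels of different genes were compared as transcripts-per-million (TPM), which correct for gene length. In CD34 negative CAFs the order was Nbl1 (680 ± 140 TPM), Bmp7 (37.2 ± 7.48), Chrd (36.3 ± 7.53), Bmp4 (7.25 ± 4.76), Bmp2 (3.52 ± 2.63), Chrdl1 (2.41 ± 0.735), Grem1 (1.92 ± 1.18), Bmp3 (1.86 ± 0.487) and Sostdc1 (0.121 on average). Only 3 pairs of neighbors in that order had ranges that did not overlap, namely Nbl1 and Bmp7, Chrd and Bmp4, and Bmp3 and Sostdc1. In CD34 positive CAFs it was Nbl1 (529 ± 217), Chrdl1 (23.6 ± 6.93), Chrd (19.4 ± 4.66), Bmp7 (12.4 ± 2.17), Bmp2 (9.38 ± 5.22), Bmp4 (7.87 ± 6.96), Bmp3 (6.06 ± 2.99), Grem1 (2.94 ± 0.605) and Sostdc1 (0.0284). There the separate neighbors were Nbl1 and Chrdl1, Chrd and Bmp7, and Grem1 and Sostdc1. Nbl1 was thus the most abundant of the 9 in both groups, and Chrdl1 stood sixth in CD34 negative and second in CD34 positive CAFs.

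The make-up of the transcripts of the 4 member ligands followed from these levels. Bmp7 made up 74.3%, 85.9% and 68.6% of the summed TPM of the 4 ligands in negative 1 to 3 and 32.6%, 37.6% and 34.4% in positive 1 to 3. The sum itself ranged from 33.4 to 58.7 TPM in CD34 negative and from 28.7 to 43.2 TPM in CD34 positive libraries, so its ranges overlapped. In the CD34 positive libraries the remainder was mostly Bmp4 in tumor 1 (45.1%) and Bmp2 and Bmp3 in tumor 2 (27.0% and 24.8%) and tumor 3 (35.2% and 19.4%). These shares leave out the other BMP ligands. Of those, Gdf6 averaged 61.0 TPM in CD34 negative and 33.6 TPM in CD34 positive libraries, and Gdf10 averaged 19.6 and 59.3 TPM.

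The chordin family differed in its balance between the groups, while the ranges of its sum overlapped. Chrdl1 made up 5.13%, 7.91% and 5.61% of the Chrd and Chrdl1 transcripts in negative 1 to 3 and 56.2%, 57.0% and 50.7% in positive 1 to 3. Together the genes summed to 38.7 ± 7.92 TPM in CD34 negative and 43.1 ± 11.3 TPM in CD34 positive libraries. Shares add to 100%, so 1 gene's share moves with the others'.

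**Figure D3:**
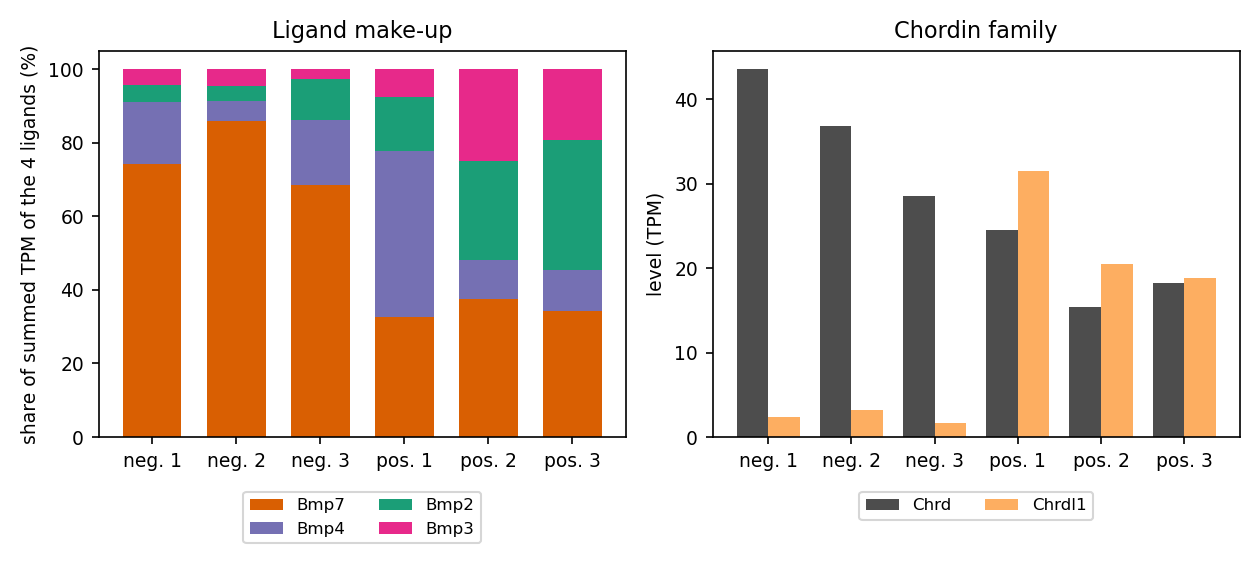
Left, the share of each ligand in the summed TPM of Bmp2, Bmp3, Bmp4 and Bmp7 in each library. Right, TPM of Chrd and Chrdl1 in each library. Bmp7 held 68.6% to 85.9% of the ligand transcripts in CD34 negative and 32.6% to 37.6% in CD34 positive libraries, and Chrdl1 exceeded Chrd in every CD34 positive library and in no CD34 negative one.

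The genes whose levels over the 6 libraries ran closest to Chrdl1 were found by the root mean square (RMS) difference of centered log2 CPM. They were Tslp, a cytokine (RMS difference 0.485), Pcsk6, a proprotein convertase (0.494), Mustn1 (0.531), Rps12-ps14 (0.560) and Gpr1 (0.562). Pcsk6 was counted at 18.0, 21.7 and 15.9 CPM in negative 1 to 3 and at 109, 103 and 124 CPM in positive 1 to 3. Tslp, Mustn1, Rps12-ps14 and Gpr1 were low, at means of 0.791, 1.12, 1.72 and 0.270 CPM in CD34 negative libraries. Their means in CD34 positive libraries were 5.62, 10.9, 10.0 and 3.9 CPM. The likeness includes the CD34 contrast on which Chrdl1 was chosen. Rps12-ps14 is a ribosomal protein pseudogene that shares sequence with its parent gene, so its counts are uncertain. Without negative 3 only 2 of the 5, Pcsk6 and Rps12-ps14, stayed among the nearest 5.

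Of 57 other BMP pathway genes, 45 were tested, and none was called by limma-voom without the block. There were 11 of the 45 with an unadjusted p under 0.05, against 14.3% of all tested genes. edgeR called 0 of the 45 and DESeq2 4, where they called 0.0606% and 4.70% of all tested genes. With the tumor as a block, limma-voom with Benjamini-Hochberg adjustment over all genes called 10, of which 5 were higher and 5 lower in CD34 negative CAFs, where 4.32% of all tested genes were called higher and 4.25% lower. The median log2 fold change of the 45 was 0.20, against −0.03 for all tested genes, and 29 were higher and 16 lower. Groups that did not overlap were higher in CD34 negative CAFs for 10.4% and lower for 10.0% of all tested genes. Among the 45 they were seen with higher levels for Fstl3, Acvr1, Eng, Smad6, Smurf1 and Id1. They were seen with lower levels for Gdf10, Fst, Fstl1 and Atoh8. The fold changes and adjusted p-values below are from the fit with the block.

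Among the other ligands, 2 of 7 were called lower and none higher, where 4.25% of all tested genes were called lower and 4.32% higher. Gdf10, a relative of Bmp3, was counted at 16.3, 13.9 and 28.6 CPM in negative 1 to 3 and at 55.2, 31.3 and 93.9 CPM in positive 1 to 3. Its groups did not overlap, and its log2 fold change was −1.57 (adjusted p = 0.00154 with the block, 0.177 without). Bmp5 was counted at 11.2, 1.11 and 0.0550 CPM in negative 1 to 3 and at 37.8, 1.88 and 0.0706 in positive 1 to 3, so tumors differed far more than fractions. It was called with the block (−1.62, adjusted p = 0.0201) but not without it (−0.14 ± 2.05, adjusted p = 0.982), where the sign turned without positive 1 (0.84), positive 2 (0.66), negative 3 (1.48) or tumor 2 (0.98). The blocked call was lost without tumor 1 (−0.70) and in both edgeR (−1.20) and DESeq2 (−1.21) with the block. Gdf6, the most abundant of these ligands at 47.3 TPM on average, was not called (0.95, adjusted p = 0.157).

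Among 10 other BMP-binding proteins, 1 was called higher and 3 lower, where 4.32% and 4.25% of all tested genes were called higher and lower. Bmper, a cysteine-rich modulator related to chordin, was counted at 29.2, 143 and 91.7 CPM in negative 1 to 3 and at 89.1, 291 and 167 CPM in positive 1 to 3. Its groups overlapped but each tumor was lower in the CD34 negative fraction, with a log2 fold change of −1.12 (adjusted p = 0.00393 with the block, 0.434 without). Follistatin (Fst), which binds activins and BMPs, was counted at 68.0, 103 and 78.7 CPM against 108, 145 and 136 CPM (−0.65, adjusted p = 0.0165 with the block, 0.221 without). Its relative Fstl1 was the most abundant of these genes, at 4132 TPM on average, and was lower by a similar amount (−0.59, adjusted p = 0.0228 with the block, 0.287 without). The Fstl1 call was lost in edgeR with the block (−0.60) and without tumor 2 (−0.61).

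Fstl3, a further follistatin relative that binds activins, took the opposite direction to Fst and Fstl1. It was counted at 22.2, 24.2 and 14.6 CPM in negative 1 to 3 and at 4.83, 10.0 and 3.00 CPM in positive 1 to 3, with groups that did not overlap. Its log2 fold change was 1.55 (adjusted p = 0.0115 with the block, 0.171 without), and it was 2.23 without tumor 2. Neither tolloid protease tested was called. Bmp1, which despite its name cleaves chordin and procollagens, had −0.07 ± 0.16 (adjusted p = 0.848) at 339 TPM on average, and Tll1 had 0.94 ± 0.29 (adjusted p = 0.0841) at 7.05 TPM.

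None of 7 receptors and none of 8 SMADs and their inhibitors was called with the block or without it. As 4.32% of all tested genes were called higher and 4.25% lower with the block, groups this small can lack a call by size alone. In the SMAD group 2 genes, Smad6 and Smurf1, had an unadjusted p under 0.05 in limma-voom without the block, as did 14.3% of all tested genes. Both are inhibitors of the pathway and were named here after their values were seen. They were higher in the CD34 negative group, with log2 fold changes of 0.67 and 0.49. The most abundant receptors, Bmpr1a (66.9 TPM on average) and Acvr1 (54.6 TPM), had log2 fold changes of 0.13 ± 0.13 (adjusted p = 0.638) and 0.26 ± 0.13 (adjusted p = 0.285). Smad4, the shared partner of receptor SMADs, had 0.07 ± 0.13 (adjusted p = 0.825) and the inhibitory Smad7 0.20 ± 0.14 (adjusted p = 0.456). Of 4 tested genes for co-receptors and a decoy receptor, 1 was called higher, where 4.32% of all tested genes were. Endoglin (Eng), a co-receptor known from endothelium, was counted at 72.0, 121 and 82.5 CPM against 39.6, 71.0 and 35.4 CPM (0.93, adjusted p = 0.00686 with the block, 0.260 without). The endothelial markers did not move together. Tek was lower in the CD34 negative libraries (13.4, 6.53 and 5.45 CPM against 65.6, 48.8 and 116 CPM). Kdr was lower in that fraction of every tumor (4.49, 1.84 and 4.21 CPM against 12.6, 3.84 and 5.12). Pecam1 was lower in tumors 1 and 3 and higher in tumor 2 (5.95, 2.97 and 0.550 CPM against 12.9, 1.92 and 1.73). Cdh5 was higher in that fraction of every tumor (4.18, 1.51 and 0.220 CPM against 1.61, 0.644 and 0). Emcn was higher in tumors 1 and 2 (1.64, 0.686 and 0 CPM against 0.557, 0 and 0), and both were at 0 in some libraries. Without Tek the sum of the other 4 overlapped between the groups, at 4.98 to 16.3 CPM against 6.40 to 27.7 CPM, and the part of endothelial cells in the Eng result was not tested. Rgmb, at 31.3 TPM on average, was not called (0.40 ± 0.16, adjusted p = 0.159).

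Among 7 target genes of the pathway, 3 were called higher and none lower, where 4.32% and 4.25% of all tested genes were called higher and lower. Id1 and Id3 are inhibitors of basic helix-loop-helix factors and are induced by BMP signals in many cells. Id1 was counted at 42.7, 58.4 and 101 CPM in negative 1 to 3 and at 31.5, 30.2 and 32.4 CPM in positive 1 to 3, with no overlap (1.09, adjusted p = 0.0131 with the block, 0.211 without). Id3, at 818 TPM on average, was counted at 594, 338 and 291 CPM against 321, 203 and 172 CPM (0.79, adjusted p = 0.0052 with the block, 0.337 without). Here negative 3 lay below positive 1, but each pair was higher in its CD34 negative fraction.

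Msx1, a homeobox factor, was counted at 15.5, 17.9 and 5.75 CPM against 4.33, 5.90 and 3.85 CPM (1.49, adjusted p = 0.0178 with the block, 0.332 without). Id2 was not called (0.24 ± 0.14, adjusted p = 0.358). Atoh8, a basic helix-loop-helix factor named here after its values were seen, was counted at 1.83, 2.83 and 2.83 CPM against 4.46, 4.66 and 5.64 CPM. Its groups did not overlap, and it was lower in the CD34 negative fraction of all 3 tumors, but it was not called (−0.92, adjusted p = 0.218 with the block and 0.299 without). In edgeR with the block the calls of Id1 (1.01) and Msx1 (1.35) were lost, and that of Msx1 also without tumor 2 (1.24). The pericyte marker sum, at 211 to 236 CPM in CD34 negative and 86.8 to 188 CPM in CD34 positive libraries, moved in the same direction as Eng, Id1, Id3 and Msx1. Its called markers were split, with Cspg4, Mcam and Notch3 higher and Kcnj8 and Abcc9 lower in the CD34 negative group. The part of pericytes in these results was not tested.

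**Figure D4:**
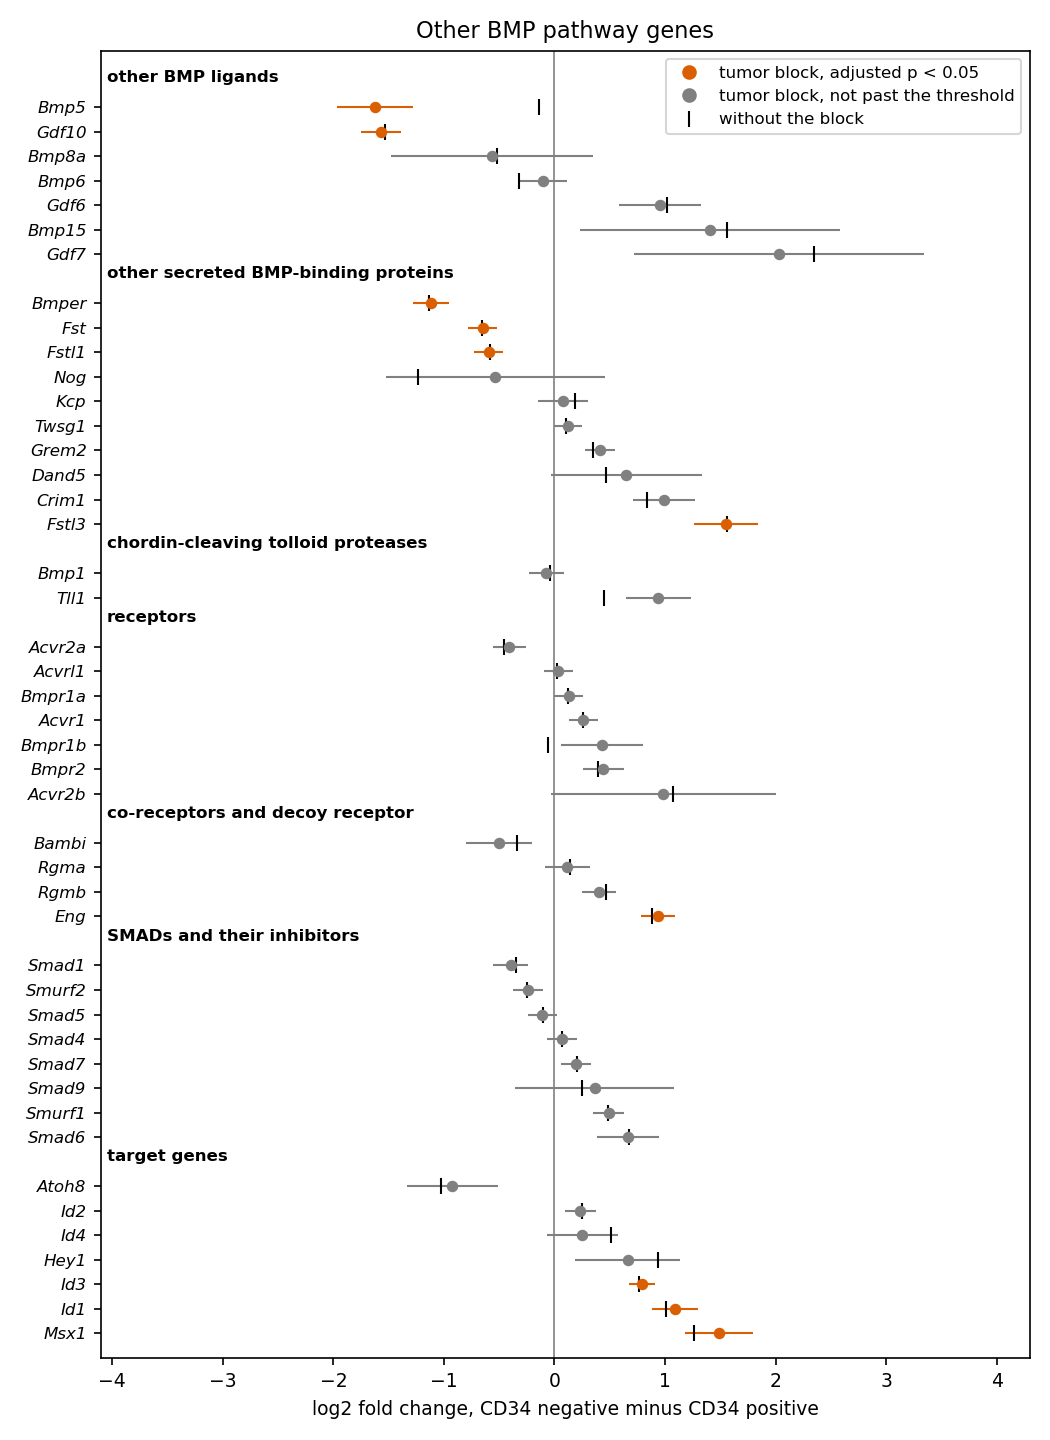
The log2 fold change (CD34 negative minus CD34 positive) of the 45 tested pathway genes by role. Points with SE bars are from limma-voom with the tumor as a block, in orange for the 10 with an adjusted p under 0.05, and black ticks are from the fit without the block. The 3 target genes called lay on the higher side, and 3 of the 4 called BMP-binding proteins on the lower side. Over all tested genes, 4.32% were called higher and 4.25% lower with the block.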

How the data were processed

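GFP+ CAFs from 3 raGFP-Wnt1 tumors were sorted by CD34, and RNA libraries (TruSeq, a kit that does not mark strand) were sequenced. The authors deposited raw counts per gene for the 6 libraries with a gene length. Per the labels, featureCounts was used on GRCm38 (mm10). Whether reads that map to several places were counted is not given in the sources used here.

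Genes were filtered by filterByExpr (minimum count 10), scaled by TMM and tested with limma-voom (limma 3.58.1, edgeR 4.0.16, R 4.3.3) without a block, CD34 negative against CD34 positive, with Benjamini-Hochberg adjustment over 14855 genes and a threshold of 0.05. A paired alternative added the tumor as a block. The labels give both fractions of a pair the same tumor, and deviations of same-tumor libraries from their group means correlated over genes (r = 0.373, 0.350 and 0.219 for tumors 1, 2 and 3). CPM used the TMM-scaled library sizes, and TPM used the deposited lengths.

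Other settings were RLE scaling, library size alone, no filter, symbol-bearing genes alone, edgeR's quasi-likelihood test, DESeq2 1.42.0, and leaving out each library or tumor. On simulated counts, 200 well-counted genes were changed by 2 log2 units. There limma-voom recovered 156 without the block (0 false calls) and 199 with it (27 false calls). With the block, edgeR recovered 199 (14 false calls) and DESeq2 198 (71 false calls). Smaller changes, as in the called pathway genes, were not simulated.

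Members and gene lists were chosen with earlier results of these data known. Named were all members, pathway genes called with or without the block, the 2 with the highest mean TPM in each role, and the 5 genes nearest to Chrdl1. Atoh8, Smad6 and Smurf1 were added after their values were seen. Overlapping genes cannot be separated by strand. Total counts per library, 16238059 to 86609267, set the precision.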

Additional observations from a re-analysis of the deposited data

How the results depend on the processing

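The number of genes called over the whole table was 18 with limma-voom without a block and 1273 with the replicate block. It was 32 with library size alone, 9 in edgeR, 698 in DESeq2, 575 in edgeR with the replicate block and 1733 in DESeq2 with the replicate block. In the paired fit it was 1134, 851 and 2019 without tumor 1, 2 and 3. Leaving out 1 library or tumor in the fit without the block gave 0 to 86. The number of other BMP pathway genes called was 0 without the block and 10 with the replicate block, 4 in DESeq2, 6 in edgeR with the block and 9 in DESeq2 with the block. It was 12, 10 and 12 in the paired fit without tumor 1, 2 and 3, and 0 in each leave-one-out fit without the block. Members called, from which nothing is read because of how they were chosen, numbered 1 without the block and 4 with it. They numbered 3 in DESeq2, 3 in edgeR with the block and 5 in DESeq2 with the block. The cause of these differences was not tested. Of the 5 genes nearest to Chrdl1, 2 were shared without negative library 3. Over all 21 settings Chrdl1 ranged from −3.63 to −3.01, Bmp7 from 1.37 to 1.78, Chrd from 0.74 to 1.16, Bmp2 from −2.11 to −1.18 and Bmp3 from −2.32 to −1.39, while Bmp4 changed sign in 10 (−0.74 to 1.21). Depth limits Sostdc1 and Grem1 most, and 3 tumors limit every comparison.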
